A study of Mus musculus with 10 samples.

Results

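Trp53, the gene of the transcription factor p53, and 9 of its well known target genes were followed in input RNA and in ribosome footprints of mouse cells in which Wdr4 was targeted. Wdr4 is the partner of the tRNA methyltransferase Mettl1. The 10 genes were Trp53, Mdm2, Ccng1, Cdkn1a, Bax, Pmaip1, Bbc3, Aen, Sesn1 and Zmat3, chosen by name, and all 10 were found among the 21934 gene symbols of the deposited tables. An immortalized line of bone marrow-derived macrophages (iBMDM) was given guide RNA sgWdr4-1 or sgWdr4-2 by lentivirus, selected with puromycin and grown from single clones, or was labelled WT. Tumour-associated macrophages (TAM) carried a myeloid-specific Wdr4 deletion (cKO) or the floxed Wdr4 gene alone (ff), and were sorted by F4/80 from orthotopic Hepa1-6 liver tumours. For the Cre driver, the age and the number of animals nothing was given in the sources used here. Each of the 5 conditions had 1 footprint library and 1 input library of polyadenylated RNA, so each line, guide and genotype is a single sample of its kind.

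p53 is kept low in unstressed cells by the ubiquitin ligase Mdm2, which is itself a p53 target, so that p53 and Mdm2 form a feedback loop. After DNA damage and other stress p53 accumulates and switches on genes of cell cycle arrest, of which Cdkn1a (p21) is the best known, and genes of mitochondrial cell death such as Bax, Pmaip1 (Noxa) and Bbc3 (Puma). Because p53 is itself controlled mainly through the stability of its protein, its mRNA is often a poor guide to its activity.

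p53 binds a consensus made of a pair of decamers, here searched by name within a window from 250 bases before to 50 bases after each gene start in RefSeq (build GRCm38.p6). The decamer is its own reverse complement as a pattern, so 1 search covers both strands. At least 1 decamer was found in 8.36% of the 32851 promoters, and a pair with a spacer of at most 13 bases in 0.0731%. The table held 13 windows for 8 of the 10 genes and none for Pmaip1 and Zmat3. Of the 8 genes with a window, 7 had a decamer in at least 1 window. Only Cdkn1a had a pair, with a spacer of 12 bases, lying between 73 and 42 bases before the start. The promoters below are examples among the genes with a decamer, with the decamers in capitals. They lie at chr17:29090886-29090957 on the plus strand (Cdkn1a), chr7:78895917-78895966 on the plus strand (Aen), chr7:45467070-45467119 on the minus strand (Bax), chr10:117710915-117710964 on the minus strand (Mdm2) and chr11:69580264-69580313 on the plus strand (Trp53).
Cdkn1a: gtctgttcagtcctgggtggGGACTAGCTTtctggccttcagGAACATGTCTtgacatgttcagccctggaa
Aen: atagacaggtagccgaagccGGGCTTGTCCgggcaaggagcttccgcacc
Bax: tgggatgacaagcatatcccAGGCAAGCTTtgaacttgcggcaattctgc
Mdm2: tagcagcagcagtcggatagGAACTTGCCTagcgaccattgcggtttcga
Trp53: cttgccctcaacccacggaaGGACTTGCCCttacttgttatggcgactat
The decamer began 121 bases before the start in Aen, 201 in Bax, 186 in Mdm2 and 75 in Trp53. A match describes these letters and was not set against any binding data.

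All values are TPM (transcript abundance per unit of gene length, as a part of a fixed library total), and changes are differences of log2(TPM + 1), which understates changes of low genes. The depth of the libraries is unknown. Wdr4 itself had 24.3 and 26.9 TPM of footprints in the libraries labelled sgWdr4-1 and sgWdr4-2, against 13.3 TPM in that labelled WT, and 17.7 TPM in cKO, against 8.51 TPM in ff. Its input was 31.3 and 44.5 TPM in sgWdr4-1 and sgWdr4-2, against 44.6 TPM in WT, and 20.9 TPM in cKO, against 39.8 TPM in ff. Its footprints thus went against the labels in all 3 targeted libraries, and every direction given here rests on those labels. Input of 12 of 15 macrophage markers stayed under 1 TPM in all 5 conditions, and Adgre1, which encodes F4/80, was listed at 0 in all 10 libraries. Their summed input was between 17.8 and 23.8 TPM, most of it Cd14 (13.8 to 19.8 TPM). Markers of fibroblasts and stellate cells summed to 4226 and 3649 TPM in sgWdr4-1 and sgWdr4-2 input, against 3579 TPM in WT. They summed to 5247 TPM in cKO, against 3591 TPM in ff. Of these 11 markers 5 stayed under 1 TPM in every input library, and most of the sum was Acta2 (2397 to 3785 TPM). Mitochondrially encoded genes took 0.781% of the sgWdr4-1 footprints and 9.94% to 14.6% of the other 4 footprint libraries, so the sgWdr4-1 footprints stood apart.

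**Figure D1:**
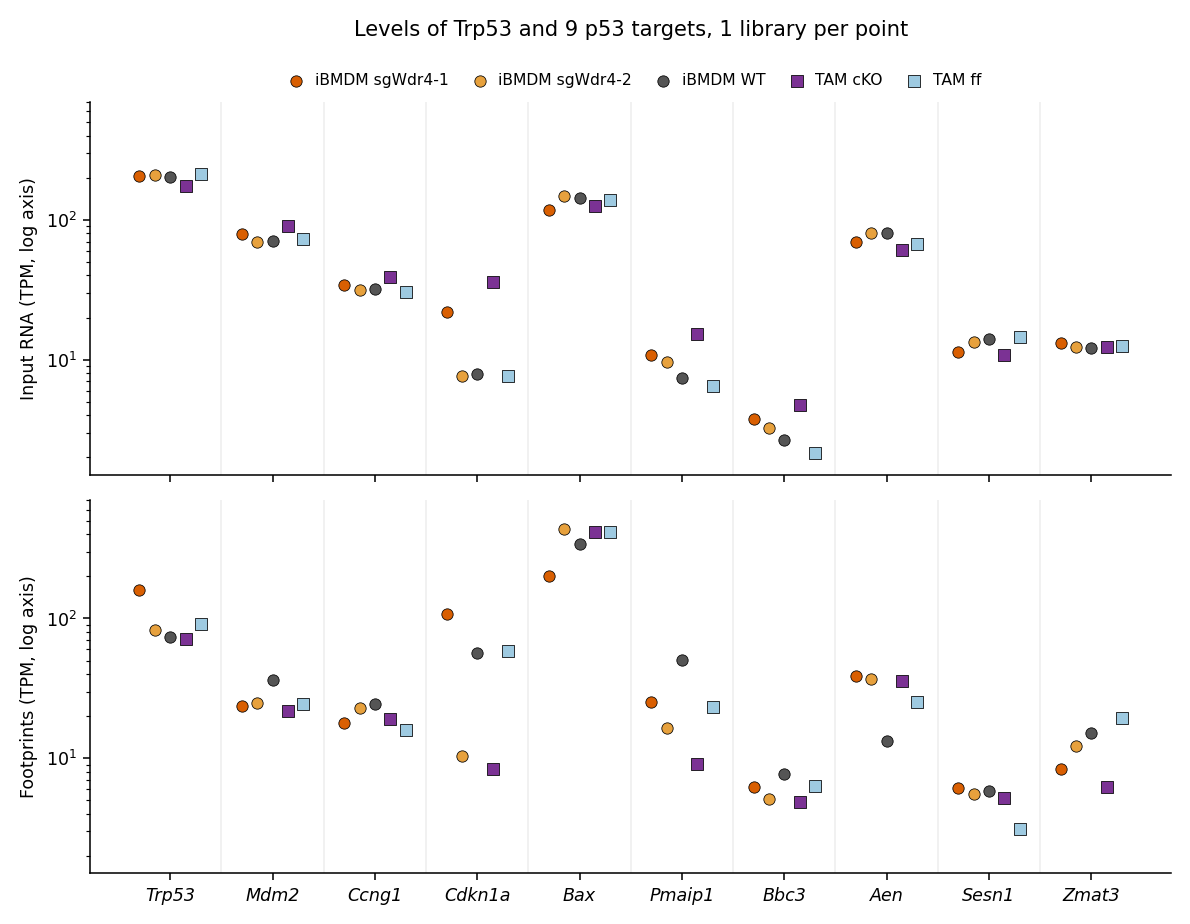
TPM of Trp53 and 9 p53 targets (log axis) in input RNA (upper panel) and footprints (lower panel), 1 point per library, with targeted libraries left of their controls. Input points of most genes lie close together, whereas Cdkn1a input in cKO (35.7 TPM) and sgWdr4-1 (21.8 TPM) lies above the other 3 libraries (7.62 to 7.89 TPM) and Cdkn1a footprints spread from 8.36 to 108 TPM.

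Trp53 had the highest input of the 10 genes. Its input was 207 and 208 TPM in sgWdr4-1 and sgWdr4-2, against 204 TPM in WT, and 175 TPM in cKO, against 212 TPM in ff. Its footprints were 160.0 and 83.3 TPM in sgWdr4-1 and sgWdr4-2, against 73.3 TPM in WT, and 71.4 TPM in cKO, against 91.1 TPM in ff. Only the sgWdr4-1 footprints lay clear of the rest: they were 1.11 higher than WT on the log2 scale, with an input difference of 0.02. Rescaling the libraries to the same median took that footprint difference to 0.98, below the 2-fold line, and rescaling with histone, ribosomal protein and mitochondrially encoded genes left out gave 0.95 for footprints and 0.98 for translation efficiency (1.09 as deposited). The RefSeq table lists a pseudogene of Trp53 (Trp53-ps), and the handling of shared reads is not stated, nor is the use of strand, which bears on its overlapping antisense neighbour Wrap53.

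Mdm2 input was 78.6 and 69.0 TPM in sgWdr4-1 and sgWdr4-2, against 70.5 TPM in WT, and 91.1 TPM in cKO, against 72.9 TPM in ff. Mdm2 footprints were 23.6 and 24.8 TPM in sgWdr4-1 and sgWdr4-2, against 36.0 TPM in WT, and 21.7 TPM in cKO, against 24.5 TPM in ff. The footprints were lower in each targeted library, by less than 2-fold. In cKO the difference was -0.17 on the log2 scale, beside -0.20 for the median gene. Both guide differences share the WT library, which had the most Mdm2 footprints of the 5. Ccng1 encodes cyclin G1, which brings a phosphatase to Mdm2. Its input lay between 30.4 and 39.1 TPM and its footprints between 16.0 and 24.2 TPM over the 5 libraries of each kind, and no change of Ccng1 reached 2-fold.

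Cdkn1a encodes p21, the inhibitor of cyclin-dependent kinases that carries out p53-dependent G1 arrest, and it varied most of the 10 genes. Its input was 21.8 and 7.64 TPM in sgWdr4-1 and sgWdr4-2, against 7.89 TPM in WT, and 35.7 TPM in cKO, against 7.62 TPM in ff. Its footprints were 108 and 10.3 TPM in sgWdr4-1 and sgWdr4-2, against 56.9 TPM in WT, and 8.36 TPM in cKO, against 58.9 TPM in ff. The library with the most Cdkn1a input, cKO, thus had the fewest Cdkn1a footprints, while sgWdr4-1 had more of both than WT, and sgWdr4-2 had fewer footprints at near-equal input. In TPM ratios, cKO had 4.69-fold the input of ff and 0.142-fold its footprints. sgWdr4-1 had 2.77-fold the input of WT and 1.90-fold its footprints, and sgWdr4-2 had 0.969-fold and 0.181-fold.

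On the log2 scale, the Cdkn1a footprints differed by -2.68 and the input by 2.09 between cKO and ff, ranking 9 from the lowest and 4 from the highest of 7101 genes tested. Its translation efficiency (log2 footprints minus log2 input) was -4.77 in cKO relative to ff, rank 6 from the lowest, beside a median gene of -0.25. Under sgWdr4-2 its translation efficiency was -2.32 relative to WT, rank 11 from the lowest of 7536 genes, and under sgWdr4-1 it was -0.44. Both guide differences use the same WT libraries. Over the 5 libraries of a kind, the SD of Cdkn1a was 0.98 in input and 1.59 in footprints (log2), higher than for 99.9% and 99.7% of the genes tested in both tables. The fibroblast and stellate marker sum given above, most of it Acta2, was highest in the 2 input libraries where Cdkn1a was highest. Its part in the Cdkn1a values was not tested. In such bulk libraries, fewer cells with a transcript and less of it per cell cannot be told apart.

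**Figure D2:**
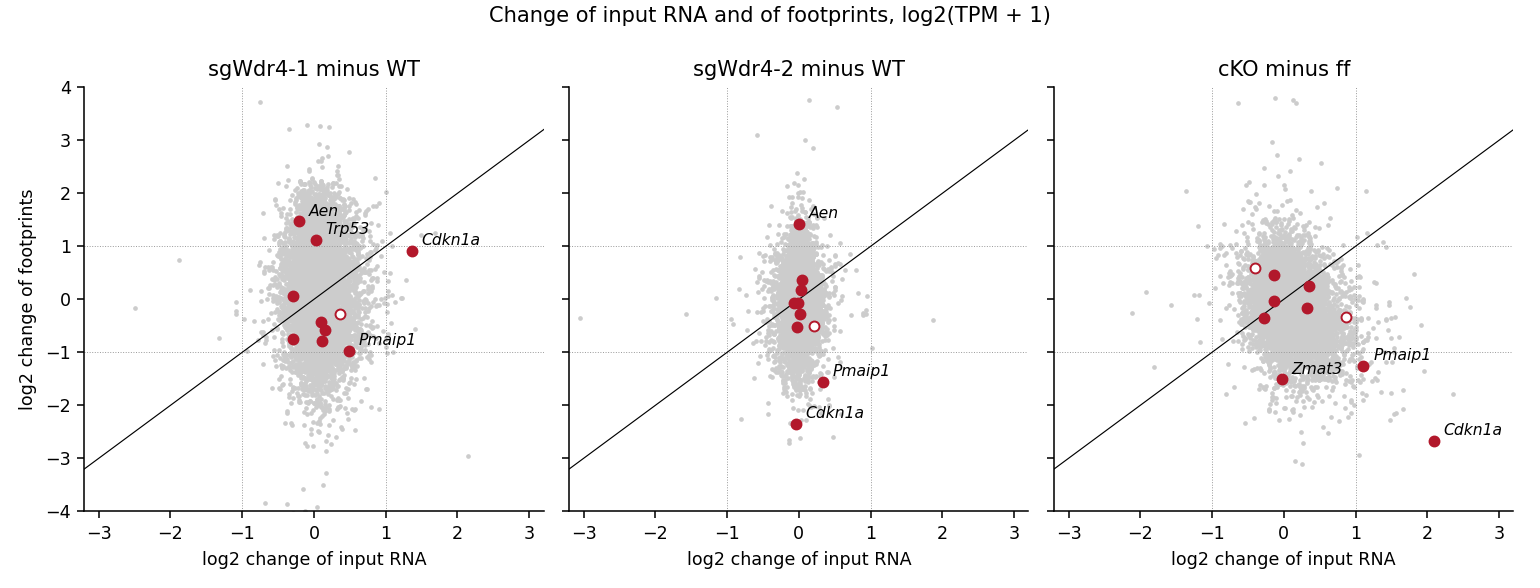
Log2 change of footprints (vertical) against log2 change of input RNA (horizontal) for sgWdr4-1 minus WT, sgWdr4-2 minus WT and cKO minus ff, with the p53 genes in red (open where the gene was below the level filter), all other genes tested in grey, dotted lines at 2-fold and equal change on the solid line. Genes beyond the axes are not drawn. In cKO, Cdkn1a (2.09 and -2.68) and Pmaip1 (1.11 and -1.25) lie at the lower right, with more input and fewer footprints.

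Pmaip1 and Bbc3 encode Noxa and Puma, BH3-only proteins that set off mitochondrial cell death by neutralising survival members of the BCL-2 family. Pmaip1 input was 10.7 and 9.56 TPM in sgWdr4-1 and sgWdr4-2, against 7.38 TPM in WT, and 15.2 TPM in cKO, against 6.49 TPM in ff. Pmaip1 footprints were 25.1 and 16.4 TPM in sgWdr4-1 and sgWdr4-2, against 50.3 TPM in WT, and 9.12 TPM in cKO, against 23.1 TPM in ff. Every targeted library had more Pmaip1 input and fewer Pmaip1 footprints than its control. Both guide differences share the WT libraries, and WT had the most Pmaip1 footprints of the 5 conditions. The translation efficiency of Pmaip1 differed by -1.46 under sgWdr4-1, -1.89 under sgWdr4-2 and -2.36 in cKO on the log2 scale. These changes ranked 368 and 32 from the lowest of 7536 genes and 66 from the lowest of 7101.

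Bbc3 had the lowest input of the 10 genes. It had 3.74 and 3.25 TPM in sgWdr4-1 and sgWdr4-2, against 2.67 TPM in WT, and 4.74 TPM in cKO, against 2.15 TPM in ff. Bbc3 footprints were 6.23 and 5.14 TPM in sgWdr4-1 and sgWdr4-2, against 7.74 TPM in WT, and 4.82 TPM in cKO, against 6.29 TPM in ff. Its values had the same order as those of Pmaip1 in each pair of libraries, but with a mean input under 5 TPM in both tables it did not enter any test.

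Bax, the pore-forming effector of mitochondrial cell death, had the highest footprints of the 10 genes. Bax footprints were 202 and 438 TPM in sgWdr4-1 and sgWdr4-2, against 342 TPM in WT, and 413 TPM in cKO, against 419 TPM in ff. Its input was 117 and 148 TPM in sgWdr4-1 and sgWdr4-2, against 143 TPM in WT, and 127 TPM in cKO, against 139 TPM in ff. No change of Bax reached 2-fold.

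Aen encodes an exonuclease that p53 induces during apoptosis. Aen footprints were 38.5 and 37.1 TPM in sgWdr4-1 and sgWdr4-2, against 13.3 TPM in WT, and 35.5 TPM in cKO, against 25.4 TPM in ff. Aen input was 69.5 and 80.2 TPM in sgWdr4-1 and sgWdr4-2, against 80.2 TPM in WT, and 60.8 TPM in cKO, against 67.2 TPM in ff. Footprints were thus higher in each targeted library, by 1.47, 1.42 and 0.47 on the log2 scale, with input near that of the control. The WT footprint library was the lowest of the 5, and the 2 guide differences share it.

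Sesn1 encodes a sestrin that restrains mTORC1 signalling, and Zmat3 a zinc finger protein that binds RNA. Sesn1 input lay between 10.7 and 14.5 TPM. Its footprints were 6.11 and 5.50 TPM in sgWdr4-1 and sgWdr4-2, against 5.83 TPM in WT, and 5.21 TPM in cKO, against 3.12 TPM in ff. With mean TAM footprints of 4.16 TPM it was tested in the iBMDM table alone. Zmat3 input was the steadiest of the 10 genes, at 12.1 to 13.2 TPM, with an SD of 0.046 on the log2 scale against 0.131 for the median gene. Zmat3 footprints were 8.36 and 12.3 TPM in sgWdr4-1 and sgWdr4-2, against 15.1 TPM in WT, and 6.17 TPM in cKO, against 19.4 TPM in ff. The footprint difference was -1.51 in cKO, past 2-fold, and -0.78 and -0.27 under the 2 guides.

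**Figure D3:**
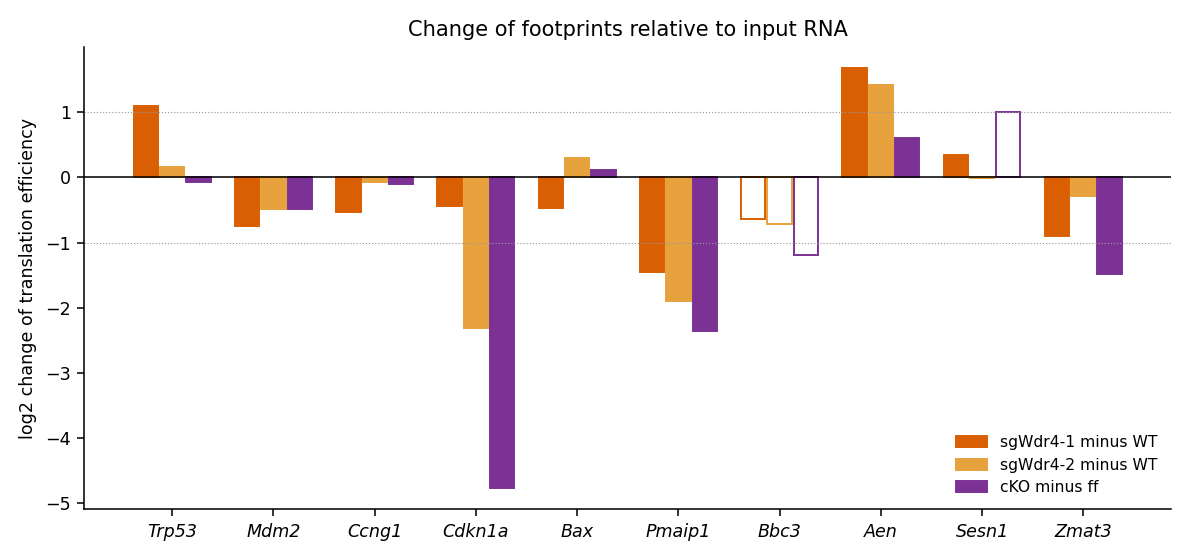
Log2 change of translation efficiency (footprints minus input) for each of the 10 genes, as bars for sgWdr4-1 minus WT, sgWdr4-2 minus WT and cKO minus ff, open where the gene was below the level filter; 1 library per condition and kind, so there is no error bar, and dotted lines mark 2-fold. Bars of Pmaip1 point down in all 3 comparisons (-1.46, -1.89 and -2.36), those of Aen point up (1.67, 1.42 and 0.61), and the Cdkn1a bar in cKO is the longest (-4.77).

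Counted by the 2-fold rule, the p53 genes did not move as a block. In cKO relative to ff, with 8 genes tested and no replicate, input was at least 2-fold higher for Cdkn1a and Pmaip1 (1.42% of all genes tested), and footprints at least 2-fold lower for Cdkn1a, Pmaip1 and Zmat3 (8.15% of all) and higher for none (2.73% of all). Translation efficiency was at least 2-fold lower for the same 3 genes (16.0% of all) and higher for none (4.03% of all). Cdkn1a and Pmaip1 were among 38 of 7101 genes (0.535%) that had both at least 2-fold more input and at least 2-fold fewer footprints. Of the 101 genes with at least 2-fold more input, these 38 were 37.6%, so the pairing was common among such genes. The median translation efficiency of the 8 genes differed by -0.29 in cKO, beside -0.25 for all genes. Over the 9 genes tested with the guides it was -0.47 beside 0.01 under sgWdr4-1 and -0.07 beside -0.05 under sgWdr4-2, and the footprint median under sgWdr4-1 was -0.43 beside 0.09.

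Under sgWdr4-1, with 9 genes tested, input was at least 2-fold higher for Cdkn1a alone (0.318% of all). Footprints and translation efficiency were at least 2-fold higher for Aen and Trp53 (16.1% and 14.8% of all), and translation efficiency was lower for Pmaip1 (13.7% of all). Rescaling moved these calls: Trp53 left them as given above, Pmaip1 footprints reached -1.12 (same median) or -1.15 (those gene classes left out), and in the second of these Zmat3 translation efficiency reached -1.02. Under sgWdr4-2, no p53 gene reached 2-fold in input. Footprints and translation efficiency were higher for Aen (3.03% and 3.53% of all) and lower for Cdkn1a and Pmaip1 (4.63% and 4.87% of all). The robust SD of footprint changes over all genes was 0.916 under sgWdr4-1 and 0.516 under sgWdr4-2, so a 2-fold change was common under sgWdr4-1.

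With both guide lines set against WT by limma (Benjamini-Hochberg adjusted over 7536 genes, two-sided, 1 residual degree of freedom), none of the 9 p53 genes passed adjusted p under 0.05. The same test called 0%, 0.0133% and 0.0663% of all genes in input, footprints and translation efficiency, and gave an unadjusted p under 0.05 to 55, 65 and 165 genes. Among the p53 genes, unadjusted p was under 0.05 only for the translation efficiency of Pmaip1 (-1.67, SE 0.56, adjusted p = 0.791) and Cdkn1a (-1.38, SE 0.55, adjusted p = 1.00). Of the guide means, that of Cdkn1a rests on unlike values: leaving out sgWdr4-1 gave -2.32 and leaving out sgWdr4-2 gave -0.44. No label says whether the libraries are from separate cultures or animals, so p-values rest only on the spread between these libraries. For each gene limma draws that spread towards the spread of other genes, which weighs most at 1 residual degree of freedom.

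With the 3 targeted conditions set against the 2 controls over both tables (limma with a table term, 6927 genes, 2 residual degrees of freedom), none of the 8 p53 genes tested passed, and neither did any other gene (0% in each kind; 665, 189 and 539 genes at unadjusted p under 0.05 in input, footprints and translation efficiency). The lowest unadjusted limma p of a p53 gene was 0.000279, for Pmaip1 translation efficiency, with a difference of -1.97 (SE 0.32, limma adjusted p = 0.283). It was lower in 3 of 3 targeted conditions. Pmaip1 input differed by 0.71 (SE 0.21, limma adjusted p = 0.506) and its footprints by -1.26 (SE 0.39, limma adjusted p = 1.00). Cdkn1a differed by 1.27 in input (SE 0.43, limma adjusted p = 0.506) and by -2.83 in translation efficiency (SE 0.78, limma adjusted p = 0.418). Translation efficiency also had an unadjusted p under 0.05 for Aen (1.14, SE 0.48, limma adjusted p = 0.612) and Zmat3 (-0.97, SE 0.40, limma adjusted p = 0.592).

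These last results depended on which library was present, with 1 residual degree of freedom left in each case. The spread used by limma in such fits comes largely from other genes, so the size of the adjusted p-values is not read. Without sgWdr4-1, Pmaip1 and Cdkn1a passed the limma test in translation efficiency (Pmaip1 -2.13, adjusted p = 0.0351; Cdkn1a -3.54, adjusted p = 0.0363), as did 1.02% of all genes, and with Aen in footprints, as did 11.2% of all genes. The footprint differences were then -1.41 for Pmaip1 (limma adjusted p = 0.000521), -2.52 for Cdkn1a (limma adjusted p = 2.9e-13) and 0.94 for Aen (limma adjusted p = 0.0233). Without sgWdr4-2, both passed in translation efficiency (Pmaip1 -1.91, limma adjusted p = 0.000827; Cdkn1a -2.61, limma adjusted p = 6.8e-08) and in input (Pmaip1 0.80, limma adjusted p = 0.000155; Cdkn1a 1.73, limma adjusted p = 4.9e-27). In those fits 0.953% of all genes passed in translation efficiency and 24.2% in input. Without WT the difference is that of cKO from ff alone, 1 library each (-4.77 for Cdkn1a translation efficiency). Its residual spread is that of the 2 guides, so the p-value of that fit is not read. Without cKO or ff, where the guides and WT alone give the difference, none of the 8 genes passed in any kind (0% to 0.144% of all genes).

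Footprints were also set against input over all 5 conditions, each pair of libraries centred on its median gene. By limma (6927 genes, 4 residual degrees of freedom), 6 of the 8 p53 genes tested differed from the median gene: Bax, Cdkn1a and Pmaip1 had more footprints for their input (31.3% of all genes passed in this direction), and Mdm2, Aen and Trp53 had fewer (30.5%). In all, 61.8% of all genes passed, so nothing is read from the count of 6. Such levels depend on whether the TPM lengths cover whole transcripts or coding parts, which is not stated. Bax had 1.20 in sgWdr4-1, 2.12 in sgWdr4-2, 1.79 in WT, 2.56 in cKO and 2.18 in ff on this log2 scale, a mean of 1.97 ± 0.51 (SD, n = 5; limma adjusted p = 2.5e-05). It was above the median gene by more than 2-fold in every condition.

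Pmaip1 had 1.57 in sgWdr4-1, 1.28 in sgWdr4-2, 3.15 in WT, 0.19 in cKO and 2.29 in ff on the same scale, a mean of 1.69 ± 1.11 (SD, n = 5; limma adjusted p = 0.00133). Cdkn1a had 2.67 in sgWdr4-1, 0.95 in sgWdr4-2, 3.24 in WT, -1.11 in cKO and 3.39 in ff, a mean of 1.83 ± 1.91 (SD, n = 5; limma adjusted p = 0.0119). Both were highest in the 2 control conditions, and cKO was the only condition in which Cdkn1a was below the median gene. Mdm2 was lower in all 5 conditions, with a mean of -0.93 ± 0.33 (SD, n = 5; limma adjusted p = 0.00226). Aen (-0.72 ± 0.77, SD, n = 5; limma adjusted p = 0.0388) and Trp53 (-0.53 ± 0.37, SD, n = 5; limma adjusted p = 0.0392) were nearer to the threshold, and Ccng1 (-0.13 ± 0.28) and Zmat3 (0.48 ± 0.58) did not pass (limma adjusted p = 0.564 and 0.0892).

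**Figure D4:**
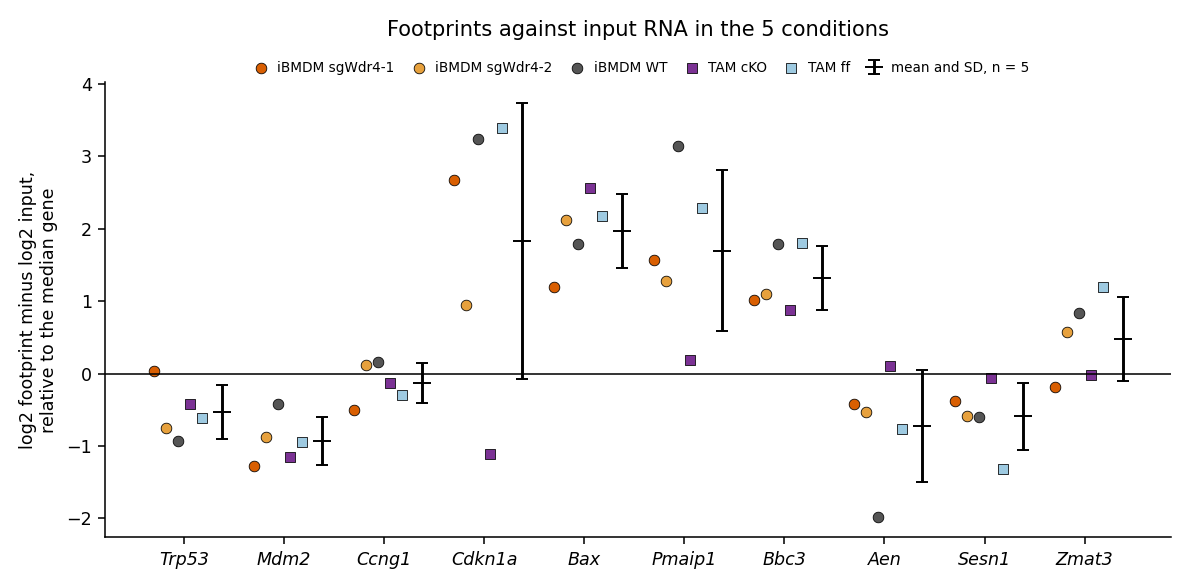
Log2 footprints minus log2 input relative to the median gene, 1 point per condition for each of the 10 genes, with the mean and SD over the 5 conditions in black. All 5 Bax points lie above 1 (1.20 to 2.56) and all 5 Mdm2 points below 0, whereas Cdkn1a runs from -1.11 in cKO to 3.39 in ff.

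Some of these calls were lost with 1 condition left out, which also leaves fewer degrees of freedom; 51.7% to 67.8% of all genes passed in those fits. Leaving out WT, Cdkn1a no longer passed (1.48, limma adjusted p = 0.0519), nor without sgWdr4-1 (1.62, limma adjusted p = 0.0575). The call of Aen was lost without WT (-0.41, limma adjusted p = 0.182), and also without sgWdr4-2 (-0.77, limma adjusted p = 0.0701) or ff (-0.71, limma adjusted p = 0.0924) at a difference near the full -0.72. That of Trp53 was lost without WT (-0.44, limma adjusted p = 0.151), sgWdr4-2 (-0.48, limma adjusted p = 0.140), ff (-0.51, limma adjusted p = 0.109) or cKO (-0.56, limma adjusted p = 0.0637), beside the full -0.53. Zmat3 passed without sgWdr4-1 (0.64, limma adjusted p = 0.0271). Bax, Pmaip1 and Mdm2 passed whichever condition was left out.

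The other genes of the pathway were read from lists by their counts. Of 38 other p53 targets in the tables, 19 were tested in TAM. In cKO relative to ff, 2 had at least 2-fold more input (1.42% of all genes) and none less (0.169%). These were Gadd45a (1.41 on the log2 scale) and Sesn2 (1.24). Sesn2 is also on the stress response list below and is counted in both. Footprints were at least 2-fold lower for 3 of the 19 (8.15% of all genes), among them Plk2, a polo-like kinase (-1.65). Translation efficiency of the 19 was at least 2-fold lower for 8 (16.0% of all genes) and higher for none (4.03%). Its median was -0.89, against -0.25 for all genes. The largest changes were those of Gadd45a, a growth arrest gene (-2.42), Plk2 (-2.33), Sesn2, a sestrin (-1.79), and Cd82, a tetraspanin (-1.59). Under the guides, 21 were tested. Translation efficiency was at least 2-fold higher for 4 and lower for 3 under sgWdr4-1 (14.8% and 13.7% of all genes), and higher for 1 and lower for 2 under sgWdr4-2 (3.53% and 4.87% of all genes). Rrm2b, the p53-induced ribonucleotide reductase subunit, had -1.09 under sgWdr4-1 and -1.30 under sgWdr4-2, which share WT.

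Of 20 regulators of p53, 14 were tested and none reached 2-fold in input in any of the 3 comparisons. In cKO, translation efficiency was at least 2-fold higher for Cop1, a ubiquitin ligase of p53 (1.48; 4.03% of all genes were higher). It was lower for the kinase Atm (-1.67), the acetyltransferase Crebbp (-1.37) and the DNA damage protein Trp53bp1 (-1.18), as for 16.0% of all genes. Cop1 was instead at -2.11 under sgWdr4-1 and at 0.65 under sgWdr4-2, while Crebbp was at -1.28 and -1.22. Of 17 cell cycle partners of p21, 14 were tested, and in cKO only the kinase inhibitor Cdkn2c (1.25) reached 2-fold in translation efficiency. Of 14 other BCL-2 family genes, 6 were tested in TAM, and only Bad, with footprints higher by 1.37, reached 2-fold in cKO. No gene of these lists passed limma in the guide comparison or over both tables. Over both tables, unadjusted limma p for translation efficiency was under 0.05 for 4 of 19 other targets, 2 of 13 regulators, 0 of 14 partners of p21 and 0 of 6 BCL-2 family genes, beside 7.78% of all genes.

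The stress response list, which shares transcription factors with some p53 targets, held 10 genes tested in TAM. In cKO, 5 of 10 had at least 2-fold more input (1.42% of all genes), 6 of 10 had at least 2-fold fewer footprints (8.15%), and 9 of 10 had at least 2-fold lower translation efficiency (16.0%), with a median of -1.90 against -0.25 for all genes. Trib3, a pseudokinase, differed by 2.36 in input and by -1.79 in footprints on the log2 scale. Under sgWdr4-1, with 9 genes tested, the footprint median went the other way from cKO. Footprints were at least 2-fold higher for 2, Trib3 (1.25) and Ddit4 (16.1% of all genes), and lower for none (10.3%). Translation efficiency was higher for 1 and lower for 2 (14.8% and 13.7% of all genes). The list medians were 0.61 in input, 0.31 in footprints and -0.43 in translation efficiency, beside 0.08, 0.09 and 0.01 for all genes. Under sgWdr4-2 footprints were lower for 4 (4.63% of all genes), Trib3 (-1.18) among them, and higher for none (3.03%). Translation efficiency was then lower for 3 (4.87% of all genes) and higher for none (3.53%). Ppp1r15a, the stress-induced phosphatase subunit Gadd34, had a translation efficiency of -2.85 in cKO, and of -1.48 and -1.59 under sgWdr4-1 and sgWdr4-2.

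The genes whose pattern over the 10 libraries was most like that of Cdkn1a, by Pearson r of log2(TPM + 1) centred within each table and kind among 5563 genes, were Gstm1 (0.999), Mmp14 (0.996), Ccn2 (0.996), Hmox1 (0.995) and Atf3 (0.995). None of them is on the list of p53 genes, and Atf3 is on the stress response list. Among the p53 genes compared, Mdm2 (0.45, rank 2316), Trp53 (0.44, rank 2359) and Zmat3 (0.35, rank 2619) were the most like it, and Bax (-0.70, rank 4944) the least. The ranks are among the 5563 genes, so even the highest of them lay near the middle. Pmaip1, Bbc3 and Sesn1 were not compared, since their mean input or footprint TPM over the 5 conditions was under 10. Pmaip1, which like Cdkn1a had more input and fewer footprints in cKO, fell only just under that level. Its mean input was 9.21 TPM in iBMDM and 10.8 TPM in TAM. These values describe 10 libraries in 5 conditions that share their normalisation within a table, and the wide spread of a few libraries weighs on them. Hmox1, for example, differed by 1.53 in input and by -2.16 in footprints in cKO on the log2 scale, beside 2.09 and -2.68 for Cdkn1a.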

How the data were processed

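Input RNA and ribosome footprints were measured in 5 conditions, 1 library of each kind per condition. The authors deposited TPM in 2 tables, 1 for iBMDM and 1 for TAM, normalised separately. Per the submitters' processing notes, fastp 0.18.0 and Bowtie2 were used on the reads. Not given in the sources used here are the quantifier, genome build, annotation and use of strand. No counting interval can be had, as depth is lost in TPM.

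Of 21956 rows per table, those of 20 symbols with several rows were reduced to the row with the highest mean. Genes entered a test with mean input and mean footprint TPM of at least 5 in a table. Values were log2(TPM + 1). Translation efficiency was log2 footprints minus log2 input within a condition, which pairs the libraries of that condition. limma 3.58.1 in R 4.3.3 (empirical Bayes, expression trend, Benjamini-Hochberg over all genes tested, two-sided, 0.05) gave the tests and was tested on simulated data. In the guide fit the residual spread of a gene comes from the difference between guides, and empirical Bayes draws it towards that of other genes. cKO against ff has 1 library per group and kind, so a 2-fold rule with no p-value was used. Tables and plots were made with pandas 2.3.3, numpy 2.4.6 and matplotlib 3.10.9 in Python 3.11.15.

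The genes and lists were chosen with earlier results of these data known. Named were all 10 p53 genes and Wdr4. Of each other list, up to 4 genes per direction and kind were taken, by the smaller guide change or the cKO change, at least 2-fold. The 5 genes most like Cdkn1a (mean TPM of at least 10 in both kinds) were added. Alternatives were pseudocounts of 0.5 and 5, no filter and a minimum of 20 TPM, both rescalings, no trend, no pairing and leaving out each condition.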

Additional observations from a re-analysis of the deposited data

Results flagged for a closer look

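By the sign of the raw difference, some p53 genes moved one way under both guides (each against WT) and the other way in cKO (against ff). These differences were not tested, and each guide and genotype has 1 library per kind. Values are log2 differences, and the gap is the cKO value minus the mean of the guide values. Trp53 input was 0.02 under sgWdr4-1, 0.03 under sgWdr4-2 and -0.27 in cKO, a gap of -0.30. Trp53 footprints were 1.11 under sgWdr4-1, 0.18 under sgWdr4-2 and -0.35 in cKO, a gap of -0.995. Its translation efficiency was 1.09 under sgWdr4-1, 0.15 under sgWdr4-2 and -0.07 in cKO, a gap of -0.69. Relative to the median gene, these translation efficiency values were 1.08, 0.20 and 0.18, so the direction was then the same. Trp53 input relative to the median gene was -0.05 under sgWdr4-1, 0.02 under sgWdr4-2 and -0.34 in cKO, so the guides then differed in sign. Ccng1 footprints were -0.43 under sgWdr4-1, -0.08 under sgWdr4-2 and 0.25 in cKO, a gap of 0.50. Zmat3 input was 0.11 under sgWdr4-1, 0.01 under sgWdr4-2 and -0.03 in cKO, a gap of -0.0928. The Trp53 gaps in footprints and translation efficiency include the sgWdr4-1 footprint library, which stood apart in its mitochondrial share (0.781%).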

How the results depend on the processing

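No alternative other than leaving out a condition changed how many p53 genes limma called by more than 1.5 times, among pseudocounts, filters, rescalings, no trend and no pairing. Without the pairing by condition (no replicate block), limma called no p53 gene (0) in guide translation efficiency, none in the comparison of targeted with control conditions, and 6 for footprints against input. Leaving out each condition in turn gave 3 to 6 calls for footprints against input (51.7% to 67.8% of all genes), and for targeted against control conditions 0 to 2 in input (0% to 24.2% of all genes), 0 to 3 in footprints (0.0433% to 11.2%) and 0 to 2 in translation efficiency (0.115% to 1.02%). By the 2-fold rule in cKO, input held 1 gene instead of 2 with a pseudocount of 5 (Pmaip1 at 0.81; its footprints, at -0.995, were then lost too, leaving 2 genes of 3), after rescaling to the same median (Pmaip1 at 1.00, just under the line before rounding) and with a minimum of 20 TPM. That minimum also left 1 gene in footprints and 1 in translation efficiency, since it tested fewer genes.

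Signs turned only for differences that did not pass the test. With libraries rescaled to the same median, guide input became -0.0195 for Ccng1, -0.0033 for Mdm2 and -0.0393 for Trp53, and rescaled without mitochondrial, ribosomal protein and histone genes it became -0.0032 for Trp53. Over both tables, Zmat3 input became -0.0448 and -0.0126 under these rescalings, and Ccng1 footprints became 0.0320 with the same median. Leaving out each condition in turn, the difference over both tables ran from -0.0295 to 0.0633 for Zmat3 input, from -0.274 to 0.0267 for Trp53 input, from -0.253 to 0.247 for Ccng1 footprints, from -0.347 to 0.648 for Trp53 footprints, from -0.390 to 0.166 for Bax footprints, from -0.0729 to 0.621 for Trp53 translation efficiency and from -0.177 to 0.210 for Bax translation efficiency. Unknown depth, 1 library per condition and kind and macrophage markers near 0 limit every comparison.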
